A study of Mus musculus with 6 samples.

Results

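Genes of the endothelin and natriuretic peptide systems were followed in lung tissue of GRdim/dim and GR+/+ mice after hemorrhagic shock (HS). They are the ligand gene Edn1, the converting enzyme gene Ece1, the endothelin receptor genes Ednra and Ednrb, and the natriuretic peptide receptor genes Npr1, Npr2 and Npr3. They were chosen by their gene symbols, 7 of the 54532 genes in the count table, and all 7 had enough reads to be tested. Npr3 was higher in GRdim/dim lungs, with 264 ± 132 CPM, counts scaled to a library total of 1000000, against 95.6 ± 14.2 CPM in GR+/+ lungs (mean ± SD, n = 3 each), and passed the threshold of DESeq2 but not that of edgeR. The other 6 genes passed neither.

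Endothelin-1 is made mainly by endothelial cells as a longer precursor that endothelin converting enzyme cleaves to the active peptide. On vascular smooth muscle the ETA receptor, the product of Ednra, raises calcium and constricts the vessel, while the ETB receptor, the product of Ednrb, on endothelium releases nitric oxide and prostacyclin and removes endothelin from the blood, a task for which the lung is known. Natriuretic peptides relax vessels through the guanylyl cyclase receptors encoded by Npr1 and Npr2, whose product is cyclic GMP, whereas the receptor encoded by Npr3 has no cyclase domain and takes the peptides up for degradation.

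GRdim/dim mice carry a point mutation in Nr3c1, the gene of the glucocorticoid receptor (GR), that impairs dimerization of the receptor in all cells of the body. GR+/+ mice were littermates, and both genotypes had the mixed background 129/SvEv x C57BL/6 and an age of 10 to 16 weeks. All 6 mice, 3 per genotype, were anesthetized, ventilated, bled to a mean arterial pressure of 35 mmHg for 1 h, given their blood back and resuscitated for 4 h with fluids and norepinephrine before the lungs were taken. Lungs without HS were not analysed here, so each value describes the genotypes after shock and not a response to shock. Each lung gave 1 library of poly(A)-captured RNA from whole tissue, in which fewer cells of a type and less RNA per cell cannot be told apart. Mice were treated on separate days, so that day and mouse cannot be told apart either.

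The libraries held 15687734 to 32082940 counts, and 16568 genes were tested. A gene was called a DEG (differentially expressed gene) when its log2 fold change was beyond 0.5 in size and its adjusted p-value was under 0.05. Summed alveolar type 2 markers reached 16810 CPM or more in every library, as lung tissue should. The level of Nr3c1 (log2 fold change -0.05) does not check the genotype, since reads of a point-mutated transcript are counted like any other. GR+/+ replicate 3 stood apart in many cell type markers. It was the lowest library for summed smooth muscle (194 against 398 to 520 CPM elsewhere), pericyte, fibroblast, endothelial and cardiomyocyte markers, and the highest for ciliated cell (366 against 116 to 196 CPM) and club cell markers. Levels of Xist and Y-linked genes placed 2 female and 1 male mice in the GR+/+ group and 1 female and 2 male mice in the GRdim/dim group.

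With edgeR's quasi-likelihood test, 0 of the 7 genes were DEGs, where 0.0724% of all tested genes were DEGs with higher and 0.0966% with lower expression in GRdim/dim lungs. At an unadjusted p-value under 0.05, edgeR counted 1 of the 7 genes as higher and 0 as lower, against 4.91% and 4.68% of all tested genes. DESeq2 called 1 gene higher and 0 lower, against 0.817% and 0.879% of the genes for which it gave an adjusted p-value. The libraries of both genotypes did not overlap for 1 gene, which was higher in GRdim/dim lungs, against 7.77% of all genes that were higher and 7.05% that were lower without overlap. That gene was Npr3 in each of these counts. The median log2 fold change of the 7 genes was -0.05, and that of all tested genes 0.01. The spread of the 7 was wide, from -0.82 for Edn1 to 1.47 for Npr3.

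**Figure D1:**
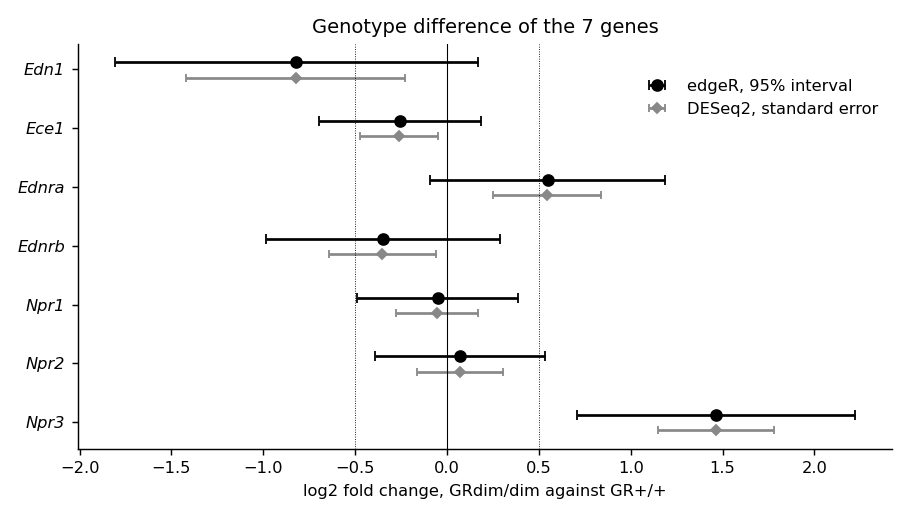
Log2 fold change (GRdim/dim against GR+/+) of the 7 genes, with 95% intervals from edgeR in black and standard errors from DESeq2 in grey; dotted lines mark the threshold of 0.5 in each direction. The interval of Npr3 runs from 0.71 to 2.22, and the edgeR intervals of the other 6 genes include 0.

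Edn1 encodes the precursor of endothelin-1 and lies on chromosome 13 of GRCm38 from 42301476 to 42307990 (plus strand, ENSMUSG00000021367). Its levels were 64.1, 153 and 94.9 CPM in GR+/+ replicates 1, 2 and 3 and 34.5, 101 and 40.7 CPM in GRdim/dim replicates 1, 2 and 3. In words, replicate 2 was the highest library of each genotype, and the GRdim/dim value of that number lay above 2 of the 3 GR+/+ values, so the groups overlapped. The mean was 104 ± 45.1 CPM in GR+/+ and 58.8 ± 36.8 CPM in GRdim/dim lungs (SD, n = 3), which is 1.77-fold lower. The log2 fold change was -0.82 with a standard error of 0.44 and a 95% interval from -1.81 to 0.17 (edgeR, adjusted p = 0.607; DESeq2, adjusted p = 0.776). The difference of the means was about as large as the SDs, and it passed neither tool.

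The 3 libraries with the lowest Edn1 level, GR+/+ replicate 1 and GRdim/dim replicates 1 and 3, were those of the male mice. Among male mice the levels were 64.1 CPM in the GR+/+ library and 34.5 and 40.7 CPM in the GRdim/dim libraries, a log2 difference of -0.77. Among female mice they were 153 and 94.9 CPM in GR+/+ and 101 CPM in GRdim/dim lungs, a log2 difference of -0.25. With 1 library in 1 genotype of each sex, these are values without a test. With sex-linked expression as a covariate, the log2 fold change of Edn1 was -0.49 (edgeR, adjusted p = 0.653). Without GRdim/dim replicate 2, it was -1.47, which DESeq2 called (adjusted p = 0.00173) and edgeR did not (adjusted p = 0.264). That fit left only male mice in the GRdim/dim group, against 2 female and 1 male GR+/+ mice, so genotype and sex are partly confounded in it.

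The 250 bases before the RefSeq start site of Edn1 are shown to set them beside those of Npr3, since GR binds DNA at the hexamer AGAACA. The window is chr13:42301226-42301475 of GRCm38.p6, plus strand, and the hexamer was in it on neither strand.

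Edn1: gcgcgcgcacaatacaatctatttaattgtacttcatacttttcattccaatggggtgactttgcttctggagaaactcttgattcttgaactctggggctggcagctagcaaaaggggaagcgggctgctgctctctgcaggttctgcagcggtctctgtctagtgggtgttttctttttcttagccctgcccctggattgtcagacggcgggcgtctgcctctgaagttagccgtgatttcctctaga

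Ece1 encodes endothelin converting enzyme 1 and lies on chromosome 4 from 137862237 to 137965229 (plus strand, ENSMUSG00000057530). It had the highest level per length of the 7 genes in each genotype. Its levels were 567, 475 and 371 CPM in GR+/+ and 402, 378 and 402 CPM in GRdim/dim replicates 1, 2 and 3. The GRdim/dim libraries lay close together and inside the wider range of the GR+/+ libraries. The means were 471 ± 98.2 and 394 ± 14 CPM (SD, n = 3), with a log2 fold change of -0.26 ± 0.20 (SE) and a 95% interval from -0.70 to 0.18 (edgeR, adjusted p = 0.756). Without GR+/+ replicate 1 it was -0.10, and without GR+/+ replicate 3 it was -0.40.

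Ednra encodes the ETA receptor and lies on chromosome 8 from 77663031 to 77724464 (minus strand, ENSMUSG00000031616). Its levels were 89.7, 84.8 and 38.2 CPM in GR+/+ and 116, 110 and 84.3 CPM in GRdim/dim replicates 1, 2 and 3. GR+/+ replicate 3 was far below the other libraries, and the lowest GRdim/dim library lay just below the upper pair of GR+/+ values. The means were 70.9 ± 28.4 and 103 ± 16.8 CPM (SD, n = 3), 1.46-fold higher in GRdim/dim lungs. The log2 fold change was 0.55 with a standard error of 0.29 and a 95% interval from -0.09 to 1.19 (edgeR, adjusted p = 0.596; DESeq2, adjusted p = 0.548). Without GR+/+ replicate 3, the log2 fold change was 0.25 (edgeR, adjusted p = 0.830). With sex-linked expression as a covariate, it was 0.49 (edgeR, adjusted p = 0.768). The log2 difference between genotypes was 0.14 among male and 0.95 among female mice, values without a test.

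The same library that was lowest in Ednra was lowest in the markers of mural cells, the smooth muscle cells and pericytes around vessels, and also in those of endothelial cells (2936 against 3342 to 4344 CPM) and fibroblasts (1306 against 1634 to 2890 CPM). The 7 summed pericyte markers gave 388 CPM in GR+/+ replicate 3 and 621 to 806 CPM elsewhere, and no marker of the smooth muscle or pericyte list was at 0 in all libraries. Relative to the mean log2 level of the smooth muscle markers, log2 Ednra was 1.20, 1.20 and 1.05 in GR+/+ and 1.88, 1.69 and 1.0 in GRdim/dim replicates 1, 2 and 3, and the groups overlapped. Relative to the pericyte markers, it was 0.33, 0.27 and 0.05 in GR+/+ and 0.78, 0.91 and 0.37 in GRdim/dim lungs, and they did not overlap. GR+/+ replicate 3 lay closer to its group on both mural scales than in CPM. Relative to the endothelial markers it was still the lowest library, with -2.62 against -1.72 and -1.98 in the other GR+/+ libraries and -1.04, -1.44 and -1.63 in GRdim/dim lungs. Absence of overlap on such scales was not particular to Ednra. Ece1 was lower in GRdim/dim lungs without overlap relative to the smooth muscle, pericyte, aerocyte capillary and general capillary markers. Npr1 was so relative to the aerocyte capillary markers. These values have no test, and the part of cell composition in the Ednra difference was not tested further.

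Ednrb encodes the ETB receptor and lies on chromosome 14 from 103814625 to 103844402 (minus strand, ENSMUSG00000022122). Its levels were 98.4, 167 and 90.5 CPM in GR+/+ and 75.1, 131 and 73.0 CPM in GRdim/dim replicates 1, 2 and 3. As for Edn1, replicate 2 was the highest library of each genotype, and the groups overlapped. The means were 119 ± 42.1 and 93.1 ± 33.0 CPM (SD, n = 3), with a log2 fold change of -0.35 ± 0.29 (SE) and a 95% interval from -0.99 to 0.29 (edgeR, adjusted p = 0.774). Without GR+/+ replicate 2, the log2 fold change was -0.02, and without GRdim/dim replicate 2 it was -0.68. With sex-linked expression as a covariate, it was -0.17 (edgeR, adjusted p = 0.938). The log2 difference between genotypes was -0.41 among male and 0.09 among female mice, values without a test, so its direction was not the same in both sexes.

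**Figure D2:**
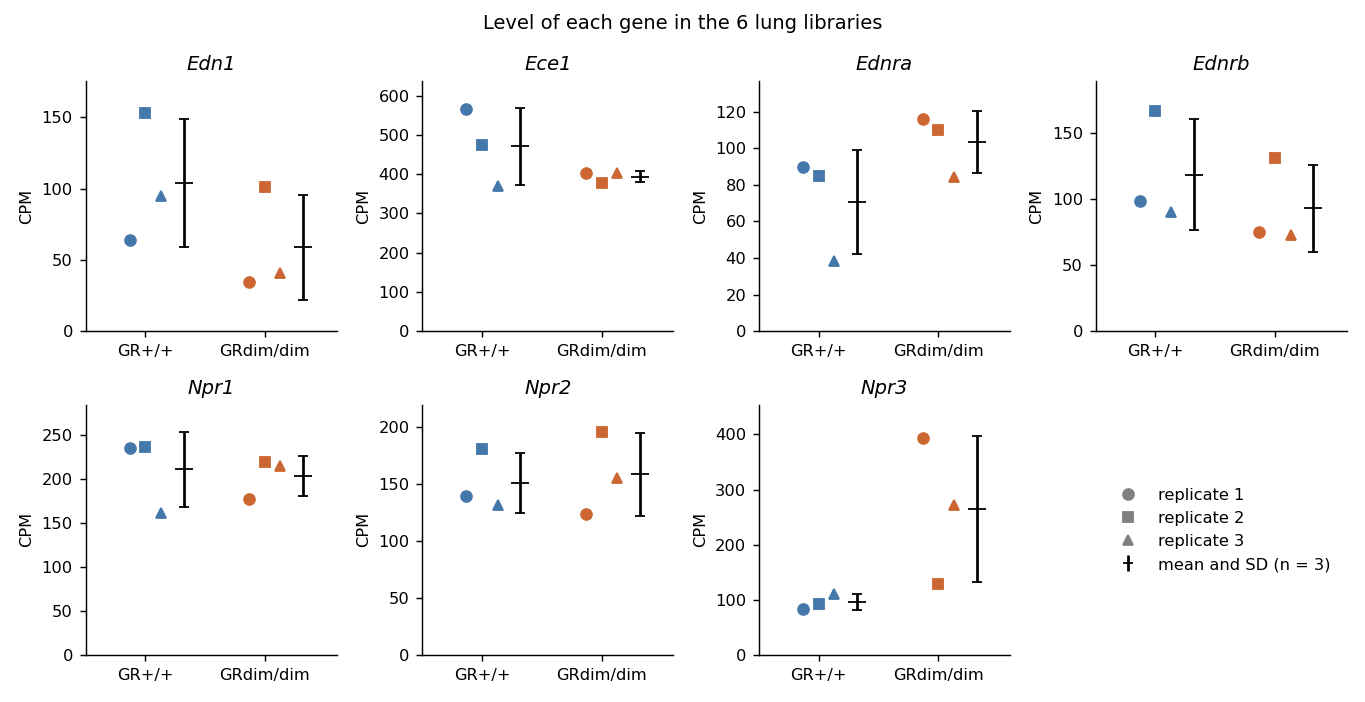
Level of each of the 7 genes in CPM (vertical axes, each from 0) in the 3 GR+/+ and 3 GRdim/dim libraries; marker shapes give the replicate number, and black bars the mean and SD. Only for Npr3 do all GRdim/dim libraries (128 to 393 CPM) lie above all GR+/+ libraries (83.4 to 111 CPM).

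Npr1 encodes the receptor of atrial and B-type natriuretic peptide, chromosome 3 from 90450591 to 90465866 (minus strand, ENSMUSG00000027931). Its levels were 235, 236 and 161 CPM in GR+/+ and 177, 219 and 214 CPM in GRdim/dim replicates 1, 2 and 3. All GRdim/dim values lay inside the GR+/+ range. The means were 210 ± 43.1 and 203 ± 23.0 CPM (SD, n = 3), with a log2 fold change of -0.05 and a 95% interval from -0.49 to 0.39 (edgeR, adjusted p = 0.969).

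Npr2 encodes the receptor of C-type natriuretic peptide, chromosome 4 from 43631935 to 43651244 (plus strand, ENSMUSG00000028469). Its levels were 139, 181 and 132 CPM in GR+/+ and 123, 196 and 156 CPM in GRdim/dim replicates 1, 2 and 3. The GRdim/dim group held both the lowest and the highest library. The means were 151 ± 26.4 and 158 ± 36.3 CPM (SD, n = 3), with a log2 fold change of 0.07 and a 95% interval from -0.39 to 0.54 (edgeR, adjusted p = 0.957). The intervals of Npr1 and Npr2 leave room for a difference of about the size of the DEG threshold in either direction, so these data do not show that their levels were equal.

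Npr3 encodes the clearance receptor, which binds all natriuretic peptides, and lies on chromosome 15 from 11839896 to 11907287 (minus strand, ENSMUSG00000022206). Its levels were 83.4, 92.3 and 111 CPM in GR+/+ and 393, 128 and 272 CPM in GRdim/dim replicates 1, 2 and 3. All GRdim/dim libraries were above all GR+/+ libraries, but GRdim/dim replicate 2 exceeded the highest GR+/+ value only a little. The means differed 2.76-fold. The log2 fold change was 1.47 with a standard error of 0.34 and a 95% interval from 0.71 to 2.22. edgeR gave an adjusted p of 0.181 (unadjusted 0.00152) and DESeq2 an adjusted p of 0.000726, so the call depended on the tool. The interval holds for this gene alone and is not adjusted for the number of genes tested.

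Leaving out a library moved the size of the Npr3 difference. Its direction could not turn in these fits, since the groups did not overlap. Without GRdim/dim replicate 1, the highest, the log2 fold change was 1.07 with edgeR (adjusted p = 0.299). Without GRdim/dim replicate 2, the lowest of its group, it was 1.80 and passed the threshold of edgeR (adjusted p = 0.0301). That library was the only female one of its group. This fit thus set male GRdim/dim mice against GR+/+ mice of both sexes, and genotype and sex are partly confounded in it. DESeq2 called Npr3 in 6 of 6 fits that left out a library, with log2 fold changes from 1.06 to 1.79 and adjusted p-values from 6.06e-09 to 0.0391. Leaving out a GR+/+ library gave 1.38 to 1.59 with edgeR.

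GRdim/dim replicates 1 and 3, the libraries with most Npr3, were those of the male GRdim/dim mice. Among male mice Npr3 stood at 83.4 CPM in the GR+/+ library and at 393 and 272 CPM in the GRdim/dim libraries, a log2 difference of 1.97. Among female mice it stood at 92.3 and 111 CPM in GR+/+ and at 128 CPM in GRdim/dim lungs, a log2 difference of 0.34. Whether the difference between sexes is larger than the spread was not tested, since each sex has 1 library in 1 genotype. With sex-linked expression as a covariate, the log2 fold change was 1.14 (edgeR, adjusted p = 0.456).

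Markers of several blood cell types differed between the same libraries, but not all in the order of Npr3. The 6 summed neutrophil markers gave 466, 325 and 239 CPM in GR+/+ and 1078, 340 and 478 CPM in GRdim/dim replicates 1, 2 and 3. They were highest in the library with most Npr3. The 5 summed B cell markers gave 48.8, 115 and 87.5 CPM in GR+/+ and 123, 430 and 363 CPM in GRdim/dim lungs. The B cell sum, like those of T cells (28.5 to 35.5 CPM in GRdim/dim lungs) and NK cells (15.4 to 23.3 CPM), peaked in GRdim/dim replicate 2, the GRdim/dim library with least Npr3. All 6 neutrophil markers had a log2 fold change above 0 (median 0.90), as had all 5 B cell markers (median 1.07), all 5 T cell markers (median 1.08) and all 4 NK cell markers (median 1.12), where 8439 of 16568 tested genes were above 0. Of these 20 genes, DESeq2 called 2 as higher, beside 0.817% of all genes, and edgeR 0, and none was at 0 in every library. The 6 summed alveolar macrophage markers were lower in GRdim/dim lungs without overlap, with 211 to 229 CPM against 349 to 379 CPM. Of the 6, only Chil3, the highest of them in each library, did not overlap by itself. It had 244, 250 and 264 CPM in GR+/+ and 161, 156 and 95.6 CPM in GRdim/dim replicates 1, 2 and 3. Siglecf (log2 fold change 0.32) and Pparg (-0.01) were not lower, so the sum mainly follows Chil3. The 10 summed endothelial markers ranged from 2936 to 4344 CPM in GR+/+ and from 3342 to 3859 CPM in GRdim/dim lungs. Relative to the mean log2 level of these endothelial markers, log2 Npr3 was -1.59 ± 0.44 in GR+/+ and -0.14 ± 0.99 in GRdim/dim lungs (SD, n = 3), and the groups overlapped. The part of cell composition in the Npr3 difference was not tested.

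The 250 bases before the RefSeq start site of Npr3 are shown because this gene carried the difference and because the window holds the hexamer AGAACA. The window is chr15:11907372-11907621 of GRCm38.p6, minus strand, written in the direction of transcription, and the capitals mark the hexamer, 31 to 26 bases before the start site.

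Npr3: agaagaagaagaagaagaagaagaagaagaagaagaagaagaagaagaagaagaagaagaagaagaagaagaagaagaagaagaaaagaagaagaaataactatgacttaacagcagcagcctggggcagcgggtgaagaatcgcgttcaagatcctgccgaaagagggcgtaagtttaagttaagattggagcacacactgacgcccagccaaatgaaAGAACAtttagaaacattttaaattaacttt

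The hexamer was searched on both strands, where it reads TGTTCT on the other, and 16.1% of 32851 windows of this length before RefSeq start sites hold it. RefSeq listed 10 start sites for the 7 genes, all of which were matched, and 3 of them had the hexamer, which were those of Npr3, Ednrb and 1 of the 4 of Ece1. The full palindrome, a pair of hexamers in opposite direction with 3 bases between them, was in 3 of the 32851 windows and in none of the 10. These matches describe the letters of the windows and not binding of GR.

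Levels between genes were compared as RPKM, CPM per kilobase of exon. In GR+/+ lungs the order of mean RPKM was Ece1 (88.9 ± 18.5), Edn1 (48.6 ± 21.1), Npr1 (44.0 ± 9.0), Npr2 (32.3 ± 5.66), Ednrb (27.8 ± 9.87), Ednra (12.9 ± 5.19) and Npr3 (10.2 ± 1.51; SD, n = 3). Neighbours in this order overlapped in their libraries except Ednrb and Ednra, for which the lowest Ednrb value of 21.2 RPKM was above the highest Ednra value of 16.4 RPKM. In GRdim/dim lungs the order was Ece1 (74.3 ± 2.64), Npr1 (42.5 ± 4.80), Npr2 (33.9 ± 7.77), Npr3 (28.2 ± 14.1), Edn1 (27.5 ± 17.2), Ednrb (21.8 ± 7.73) and Ednra (18.9 ± 3.08; SD, n = 3). There Ece1 stood above every library of the other genes, and all further neighbours overlapped. By these means, Npr3 was the last of the 7 genes in GR+/+ lungs and in the middle of the order in GRdim/dim lungs. Single libraries departed from this. In GRdim/dim replicate 2, Npr3 (13.6 RPKM) was still the last of the 7. In GR+/+ replicate 3, it (11.8 RPKM) was above Ednra (6.97 RPKM).

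Balances between members were taken as the log2 ratio of their counts within a library, which no scaling of libraries changes. The counts are not divided by gene length, so only the change of a ratio is read. The ratio of Ednrb to Ednra was 0.13, 0.98 and 1.25 in GR+/+ and -0.63, 0.25 and -0.21 in GRdim/dim replicates 1, 2 and 3 on the log2 scale. It was lower in GRdim/dim lungs by a log2 difference of -0.98, and the groups overlapped through GR+/+ replicate 1 and GRdim/dim replicate 2 (two-sided exact permutation test, p = 0.2). Those libraries were the only male GR+/+ and the only female GRdim/dim mouse. The ratio was higher in each female library (0.98, 1.25 and 0.25) than in each male one (0.13, -0.63 and -0.21). Within each sex the GRdim/dim values lay below the GR+/+ values. Genotype and sex are partly confounded in the difference of -0.98. The ratio of Npr3 to Npr1 was -1.50, -1.35 and -0.53 in GR+/+ and 1.15, -0.77 and 0.35 in GRdim/dim lungs. It was higher by 1.37 (exact permutation test, p = 0.2), with GRdim/dim replicate 2 again among the GR+/+ values. The ratio of Npr3 to Npr2 was higher by 1.27 (exact permutation test, p = 0.2), and that of Edn1 to Ece1 differed by -0.67 (exact permutation test, p = 0.3). Single libraries moved the latter pair of differences. That of Npr3 to Npr2 was 0.75 without GRdim/dim replicate 1. In male mice the Npr3 to Npr2 ratio was -0.74 in the GR+/+ library and 1.67 and 0.81 in the GRdim/dim libraries. In female mice it was -0.97 and -0.25 in GR+/+ and -0.61 in GRdim/dim lungs. For both Npr3 ratios, the female GRdim/dim value lay between the female GR+/+ values, so only male libraries set the genotypes apart. These values by sex have no test. The difference of the Edn1 to Ece1 ratio was -0.35 without GRdim/dim replicate 1 and -0.36 without GR+/+ replicate 2. It was -1.11 without GR+/+ replicate 1 and -1.17 without GRdim/dim replicate 2. This ratio was -3.14 in the male GR+/+ library and -3.54 and -3.30 in the male GRdim/dim libraries. Female mice had -1.64 and -1.97 in GR+/+ and -1.90 in GRdim/dim lungs, so all male libraries lay below all female ones. The part of the unequal sex mix in the difference between genotypes was not tested. No ratios beyond these 4 were compared. With 3 lungs against 3 the smallest p the test allows is 0.1, so no ratio could have passed 0.05.

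**Figure D3:**
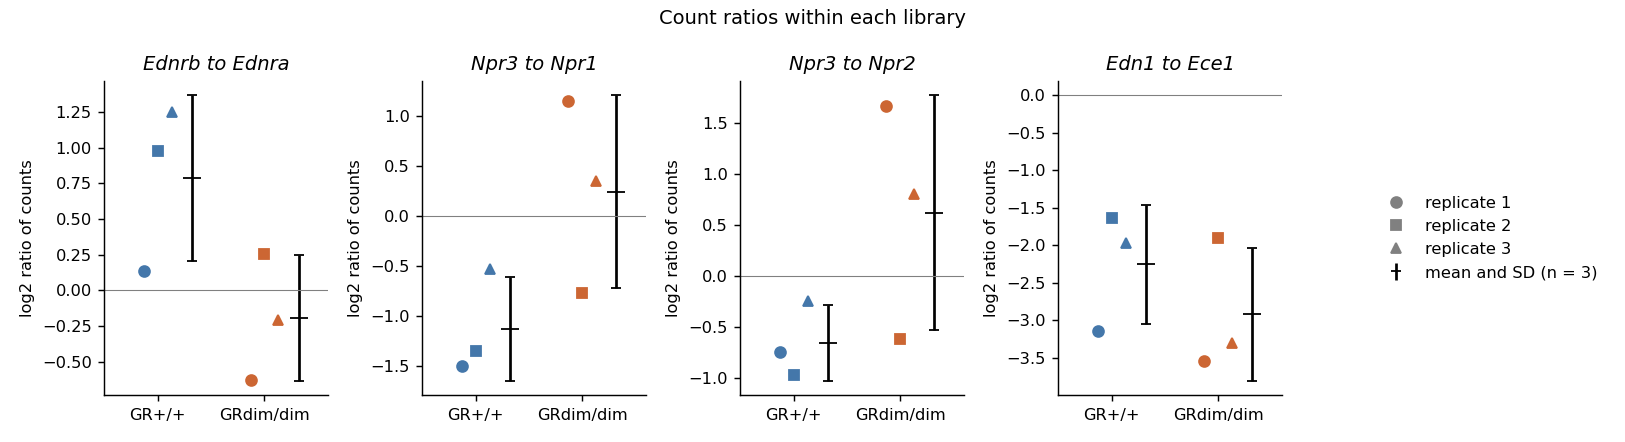
Log2 ratio of the counts of 2 genes within each library (vertical axes, not divided by gene length) for 4 pairs of genes in GR+/+ and GRdim/dim lungs; bars give the mean and SD of 3 libraries. The groups overlap in each panel, and the mean of the Ednrb to Ednra ratio is 0.79 in GR+/+ and -0.19 in GRdim/dim lungs. The GR+/+ group held 2 female and 1 male mice, the GRdim/dim group 1 female and 2 male mice. Genotype and sex are thus partly confounded.

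Of the other ligands, Edn3, the endothelin with preference for the ETB receptor, was the only one with enough reads to be tested. It had 15.6, 15.9 and 21.9 CPM in GR+/+ and 19.8, 25.0 and 14.7 CPM in GRdim/dim replicates 1, 2 and 3 (log2 fold change 0.15, edgeR, adjusted p = 0.917). The groups overlapped fully. Edn2 had 0 to 3 counts in GR+/+ and 0 to 6 in GRdim/dim libraries. The natriuretic peptide genes were as low, with 2 to 8 against 0 to 11 counts for Nppa, 0 to 1 against 0 for Nppb and 1 to 10 against 0 to 13 for Nppc. Ostn, whose product binds the clearance receptor, had 0 counts in all 6 libraries. Transcripts of the peptides that the 3 natriuretic peptide receptors bind were thus near or below the floor of 3 counts in most of these libraries, and a difference in them was not detectable at this depth.

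Further genes of the pathways were described by 5 lists with 52 genes, of which 43 were tested. With edgeR, 0 of them were DEGs, while 3 were higher and 4 lower at an unadjusted p under 0.05, beside 4.91% and 4.68% of all tested genes. DESeq2 called 1 higher and 2 lower, beside 0.817% and 0.879% of all genes. The libraries did not overlap for 4 genes that were higher and 5 that were lower in GRdim/dim lungs, beside 7.77% and 7.05% of all tested genes, so absence of overlap alone was common. The median log2 fold change of the 43 genes was -0.08, against 0.01 for all tested genes. No list was tested as a set.

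The largest difference was that of Rgs2, a regulator that ends signals of Gq-coupled receptors such as those of endothelin. Rgs2 had 91.2, 88.1 and 78.8 CPM in GR+/+ and 207, 355 and 179 CPM in GRdim/dim replicates 1, 2 and 3. All GRdim/dim libraries lay well above the GR+/+ libraries, with replicate 2 the highest. Its log2 fold change was 1.52 ± 0.25 (SE), called by DESeq2 (adjusted p = 3.6e-06) and just short of the threshold in edgeR (adjusted p = 0.0546). Among the 9 genes of receptor desensitization, Rgs4 (log2 fold change 0.65), Rgs5 (0.67) and Arrb2 (0.29), an arrestin, had higher values without overlap, and Rgs3 (-0.53) had lower ones. None of these 4 passed either tool, and 7.77% of all tested genes were higher and 7.05% lower without overlap.

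Among the 17 effectors of endothelin receptors, Itpr3, a calcium release channel opened by inositol trisphosphate, had 142, 140 and 135 CPM in GR+/+ and 76.3, 92.5 and 88.8 CPM in GRdim/dim replicates 1, 2 and 3. The replicates of each genotype lay close together and far from those of the other. Its log2 fold change of -0.69 was called by DESeq2 (adjusted p = 0.0266) and not by edgeR (adjusted p = 0.152). Gna11, a Gq family subunit (-0.33), and Plcb4, a phospholipase C (-0.49), were lower without overlap and passed neither tool. The median of the 17 genes was -0.18, and 5 of them were above 0.

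On the side of cyclic GMP, 12 of 14 genes were tested. Prkg2, a cyclic GMP-dependent protein kinase, had 32.8, 27.8 and 22.0 CPM in GR+/+ and 15.5, 11.6 and 12.2 CPM in GRdim/dim replicates 1, 2 and 3. Each GRdim/dim library was below each GR+/+ library. Its log2 fold change of -1.07 was called by DESeq2 (adjusted p = 0.00408) and not by edgeR (adjusted p = 0.131). The other 11 genes, among them Pde5a, a phosphodiesterase that breaks down cyclic GMP (log2 fold change 0.09), overlapped between genotypes.

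Genes with the profile most like that of each member over the 6 libraries were found by the root-mean-square (RMS) difference of log2 CPM, each gene minus its own mean. For Npr3 they included Irf7 (RMS 0.28) and Ifitm3 (0.32), which are both known as interferon-induced genes. Irf7 had 17.6, 19.8 and 16.2 CPM in GR+/+ and 69.3, 24.4 and 34.1 CPM in GRdim/dim replicates 1, 2 and 3. Like Npr3, it was highest in GRdim/dim replicate 1 and close to the GR+/+ level in GRdim/dim replicate 2. For Edn1 they included Clec1b (0.22), which had 19.5, 34.7 and 19.4 CPM in GR+/+ and 9.27, 23.1 and 12.4 CPM in GRdim/dim replicates 1, 2 and 3. Like Edn1, it was highest in GR+/+ replicate 2 and lowest in GRdim/dim replicate 1. The spread of Edn1 (SD of log2 CPM 0.82) and Npr3 (0.91) over the 6 libraries was wider than that of the other members.

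**Figure D4:**
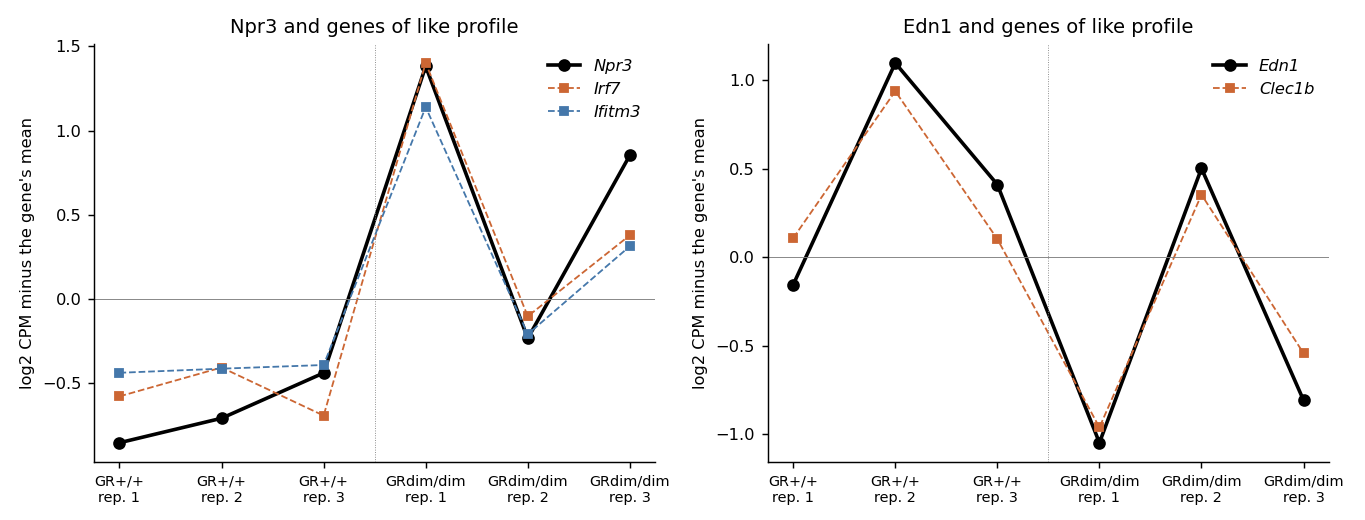
Log2 CPM minus the mean of the gene over the 6 libraries (vertical axes) for Npr3 with Irf7 and Ifitm3 (left) and for Edn1 with Clec1b (right), by library. Npr3, Irf7 and Ifitm3 peak in GRdim/dim replicate 1, and Edn1 and Clec1b peak in GR+/+ replicate 2.

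For the other members the likest genes lay closer. They were Pik3cd (0.08), Icosl (0.11) and Rassf5 (0.12) for Ednra, all lowest in GR+/+ replicate 3 as Ednra was. Ednrb was nearest to Evc (0.13), Clec9a (0.13) and Zfp641 (0.15). The flat profiles of Ece1, Npr1 and Npr2 had neighbours within 0.08, which were Cyb561a3, Ciz1 and Rtel1 for Ece1, Zfp574, Pde9a and Cxxc1 for Npr1, and Ccdc84, Dnase1l1 and Tdrp for Npr2. With 6 points and 1277 to 9945 candidates per member, such likeness is a description of these libraries.

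Other fits of the same counts moved the values of single members within limits that differed between them. In fits that left out a library, used sex-linked expression as a covariate or took the replicate number as a block, the log2 fold change of Npr3 was above 1 and that of Ednra above 0 throughout. The log2 fold changes of Edn1, Ece1 and Ednrb were below 0 in all of them, and those of Npr1 and Npr2 changed sign with the library left out.

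**Figure D5:**
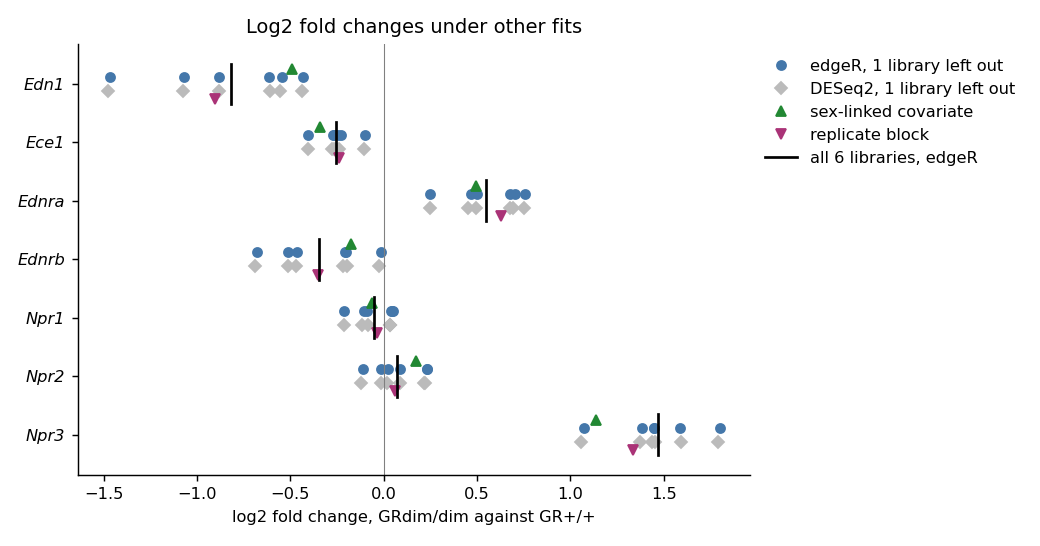
Log2 fold change (GRdim/dim against GR+/+) of the 7 genes in fits that leave out 1 library (circles for edgeR, diamonds for DESeq2), with sex-linked expression as a covariate or with the replicate number as a block (triangles); black lines mark the value from all 6 libraries. Npr3 stays between 1.06 and 1.80 and Edn1 between -1.47 and -0.43, while Npr1 and Npr2 fall on either side of 0.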

How the data were processed

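Deposited were the authors' raw counts of reads for each gene, whole numbers without normalization, for 6 libraries of poly(A)-captured lung RNA, 3 per genotype, 1 per mouse. The submitters' processing notes name the build mm10 and DESeq2, and the aligner, counter and use of strand are not given in the sources used here. Coordinates are those of the count table, and 53548 of its 54532 genes have the same ones in GENCODE M21 (GRCm38). Totals were 15687734 to 32082940 counts, so that for the 7 genes the spread between mice, not counting error, limits precision. Replicates differed by more than sampling noise (chi-square per degree of freedom 19.2 to 62.9).

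Fits ran in R 4.3.3 with edgeR 4.0.16 (filterByExpr, TMM, robust glmQLFit, glmQLFTest) over 16568 genes with Benjamini-Hochberg adjustment. DESeq2 1.42.0 with default settings was the alternative and gave adjusted p-values for 16150 genes. Other alternatives were RLE scaling, no filter, at least 10 counts in every library, a replicate block, a sex-linked covariate and each library left out. DESeq2 with each library left out was chosen after seeing the data. CPM used TMM-scaled library sizes. Standard errors came from the log2 fold change and the F statistic. Exact permutation tests used all 10 splits of 3 and 3. Relative levels are log2 CPM of a gene minus the mean log2 CPM of a marker list.

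In 3 simulated data sets with 200 changed genes, edgeR recovered 52.3% of 2-fold and 96.3% of 4-fold changes, with 9.53% of its calls false. DESeq2 recovered 69.3% and 98.7%, with 16.9% false. Changes were placed only in genes above a set minimum level, and the simulated mice differed by neither sex nor cell composition. These rates may therefore not hold for the real libraries.

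The 7 genes, 5 pathway lists and 20 marker lists were chosen with earlier results of these data known. The text names all 7, each ligand gene, pathway genes that were DEGs in either tool or did not overlap, and, per member, 3 protein-coding genes of likest profile with at least 10 CPM and an SD of at least 0.5 times that of the member. Pde5a and Kel were named after their values were seen. Some genes that this rule names are not reported here. The replicate numbers did not pair the mice, whose deviations correlated at 0.22, 0.04 and -0.05. Promoter windows are from RefSeq.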

Additional observations from a re-analysis of the deposited data

How the results depend on the processing

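Under RLE scaling, at least 10 counts in every library, the sex-linked covariate and the replicate block, edgeR called 0 of the 7 genes, as with all 6 libraries and the standard filter. It called 1, Npr3, without a filter on low counts (log2 fold change 1.46, adjusted p = 3.15e-09), and DESeq2 also called 1, Npr3 (1.47). Leaving out each library in turn gave 0 to 2 calls over both tools. The 2 were Npr3 and Edn1, with DESeq2 and without GRdim/dim replicate 2, the only female mouse of its group. Over these fits the log2 fold change ran from 1.06 to 1.80 for Npr3, from -1.47 to -0.43 for Edn1, from -0.21 to 0.048 for Npr1, from -0.12 to 0.23 for Npr2, from -0.40 to -0.10 for Ece1, from 0.25 to 0.76 for Ednra and from -0.69 to -0.02 for Ednrb, so that the sign of Npr1 and Npr2 turned with the library left out, and the other members kept theirs. For Npr3, whose groups did not overlap, leaving out a library could not turn the sign. Over all genes, DEGs numbered 28, against 522 without a filter, 274 with DESeq2, and 4 to 384 with each library left out over both tools. The cause was not tested. With the replicate block, Npr3 stood at 1.33 (edgeR, adjusted p = 0.196) and Edn1 at -0.90 (adjusted p = 0.134). There were 34 DEGs, and the block changed no call of the 7 genes, whose libraries share only a number. With a library left out, the ratio of Ednrb to Ednra differed by -1.31 to -0.75 and that of Npr3 to Npr1 by 0.91 to 1.88. That of Npr3 to Npr2 differed by 0.75 to 1.89 and that of Edn1 to Ece1 by -1.17 to -0.35. None of these differences changed sign, and sex was not taken into account in them. With 3 mice per genotype, the intervals of Npr1 and Npr2 still include differences of about 0.4 to 0.5 on the log2 scale, and 5 of the 7 genes share bases with an antisense gene, whose reads cannot be told apart without strand.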

Other observations

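Kel, which encodes a protease of red cells that can cleave an endothelin precursor, had too few reads to be tested. It had 1, 0 and 19 counts in GR+/+ and 0, 119 and 5 counts in GRdim/dim replicates 1, 2 and 3. The libraries with most Kel in each genotype were also those with most erythroid marker signal, whose 5 summed markers gave 2133, 1110 and 4141 CPM in GR+/+ and 1728, 4336 and 3390 CPM in GRdim/dim lungs.

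Genes on the opposite strand overlap 5 of the 7 genes, by 35 bases for Edn1 (Gm47118) to 559 bases for Npr1 (Gm16048). The overlapping gene of Npr3, Gm5144, had 1 to 11 counts in a library, while Npr3 had 1396 to 7284. The largest count among these overlapping genes was 219, for Gm12473 at Npr2 in GR+/+ replicate 3. The share of 31-base windows of the transcripts that also occur in another gene ran from 0.248% for Ece1 to 9.22% for Npr1 and was 3.07% for Npr3.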
